A study of Arabidopsis thaliana with 9 samples.

Results

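The plastid-encoded genes are the protein-coding genes that the chloroplast has kept in its own small genome. Here they are the 69 probe sets, of 22746 on the arrays after control probe sets were left out, that the platform annotation assigns to 1 gene of the plastid genome (RefSeq locus tags starting ArthCp). Each of the 69 probe sets reads a different gene. By role, 45 belong to photosynthesis (photosystem I, photosystem II, the cytochrome b6f complex, ATP synthase, the NDH complex and Rubisco), 19 to the plastid ribosome and RNA polymerase, and 5 to other functions. A further 8 probe sets read genes that the annotation lists in 2 copies of the plastid genome, and these are not members.

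Leaf RNA of Arabidopsis thaliana in the Columbia-0 background was measured on 9 Affymetrix arrays. The single mutant cat2 and the double mutants cat2 rbohD and cat2 rbohF had 3 arrays each. All plants lack the leaf catalase CAT2, which breaks down the hydrogen peroxide of photorespiration, and the double mutants also lack RBOHD or RBOHF, NADPH oxidases of the plasma membrane. Plants were 3 weeks old, had grown under 16 h of light at 200 umol m-2 s-1, and each array held RNA from leaves of 8 or more pooled plants. Every difference is therefore relative to a genotype without CAT2, and wild-type plants were not analysed here. In the titles the cat2 allele is cat2-2 throughout, and the oxidase mutants are written atrbohD and atrbohF with no allele number.

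As background, photosystem II splits water, the cytochrome b6f complex passes the electrons on, photosystem I reduces ferredoxin, ATP synthase uses the proton gradient, and the NDH complex returns electrons around photosystem I. Each of these complexes mixes subunits made in the plastid with subunits imported from the cytosol, as does Rubisco, whose large subunit gene rbcL lies in the plastid. Plastid genes are read by a plastid-encoded RNA polymerase, whose core is made from rpoA, rpoB, rpoC1 and rpoC2, and by a nucleus-encoded phage-type polymerase, and many are transcribed together with their neighbours. Plastid transcripts mostly lack long poly(A) tails, and tails on them mark RNA for decay. Standard Affymetrix labelling usually starts from poly(A) tails; the labels name the standard protocol and no primer. A level here is therefore the signal of the labelled part of a transcript, and less RNA per cell cannot be told apart from fewer cells that hold it.

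Levels are on the log2 scale, where 1 unit is a 2-fold change, and SDs are over the 3 arrays of a genotype. The labels call the arrays of a genotype replicates of pooled plants without saying whether the plants were grown apart, so p-values measure the spread between these pools. Members could be tested at 64 of 69 probe sets; petD, petG, ndhF, rps14 and rpoB lay under the filter value of 5.14 on all or most arrays. Their genotype means ran from 3.49 for ndhF in cat2 rbohD to 4.83 for petG in cat2 rbohF. At the other end, 13 members had means above 12 and 5 above 13, where the highest value on any array was 14.41 and differences may be compressed. The leaf label was met by its markers. RCA, the Rubisco activase gene, had means of 14.13 to 14.16 and the light-harvesting gene LHCB4.1 of 13.56 to 13.61.

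Few plastid genes differed between genotypes beyond the spread between arrays. In cat2 rbohF, 3 members rose against cat2, namely psbK and psbI, small subunits of photosystem II, and rpl32, a protein of the large ribosomal subunit; none fell. These are 3 of 64 tested (4.69%), where 16.4% of all 13888 tested probe sets were called in this comparison (limma adjusted p under 0.05), 6.47% in the upward direction. No member was called in cat2 rbohD against cat2, where 0.209% of all probe sets were, or between the double mutants, where 1.92% were. At an unadjusted limma p under 0.05, 4 members were higher and none lower in cat2 rbohD against cat2 (background 10.8%), and 8 were higher and 1 lower between the double mutants (background 22.2%). Against cat2, cat2 rbohF had 8 such members, all higher (background 30.7%). The share without overlap was below the background in each comparison. Arrays of the 2 genotypes did not overlap at 10 of 64 members in cat2 rbohF against cat2 (15.6%, background 38.7%), at 6 in cat2 rbohD against cat2 (9.38%, background 13.4%) and at 12 between the double mutants (18.8%, background 26%).

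Single arrays stood apart at many plastid genes at a time. The array cat2 rbohF replicate 1 lay above the mean of the 9 arrays at 58 of 64 members and gave the highest of the 9 values at 34. By contrast, cat2 rbohD replicate 3 was above that mean at 7 members and gave the lowest value at 30. The median deviation of the members from their own means was 0.31 on cat2 rbohF replicate 1 and -0.24 on cat2 rbohD replicate 3, and ran from -0.14 to 0.10 on the other 7 arrays. Within a genotype, 54 of 64 members were above their genotype's mean on cat2 rbohD replicate 1 against 6 on replicate 3, and 56 on cat2 rbohF replicate 1 against 9 on replicate 3. Over all tested probe sets, the share above the genotype's mean lay between 46.2% and 54% on every array. In cat2 the member counts on replicates 1, 2 and 3 were 39, 46 and 20, so replicate 3 had the lowest count in every genotype. The plastid members of these arrays were thus high or low together, relative to arrays whose distributions the normalization had equalised.

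**Figure D1:**
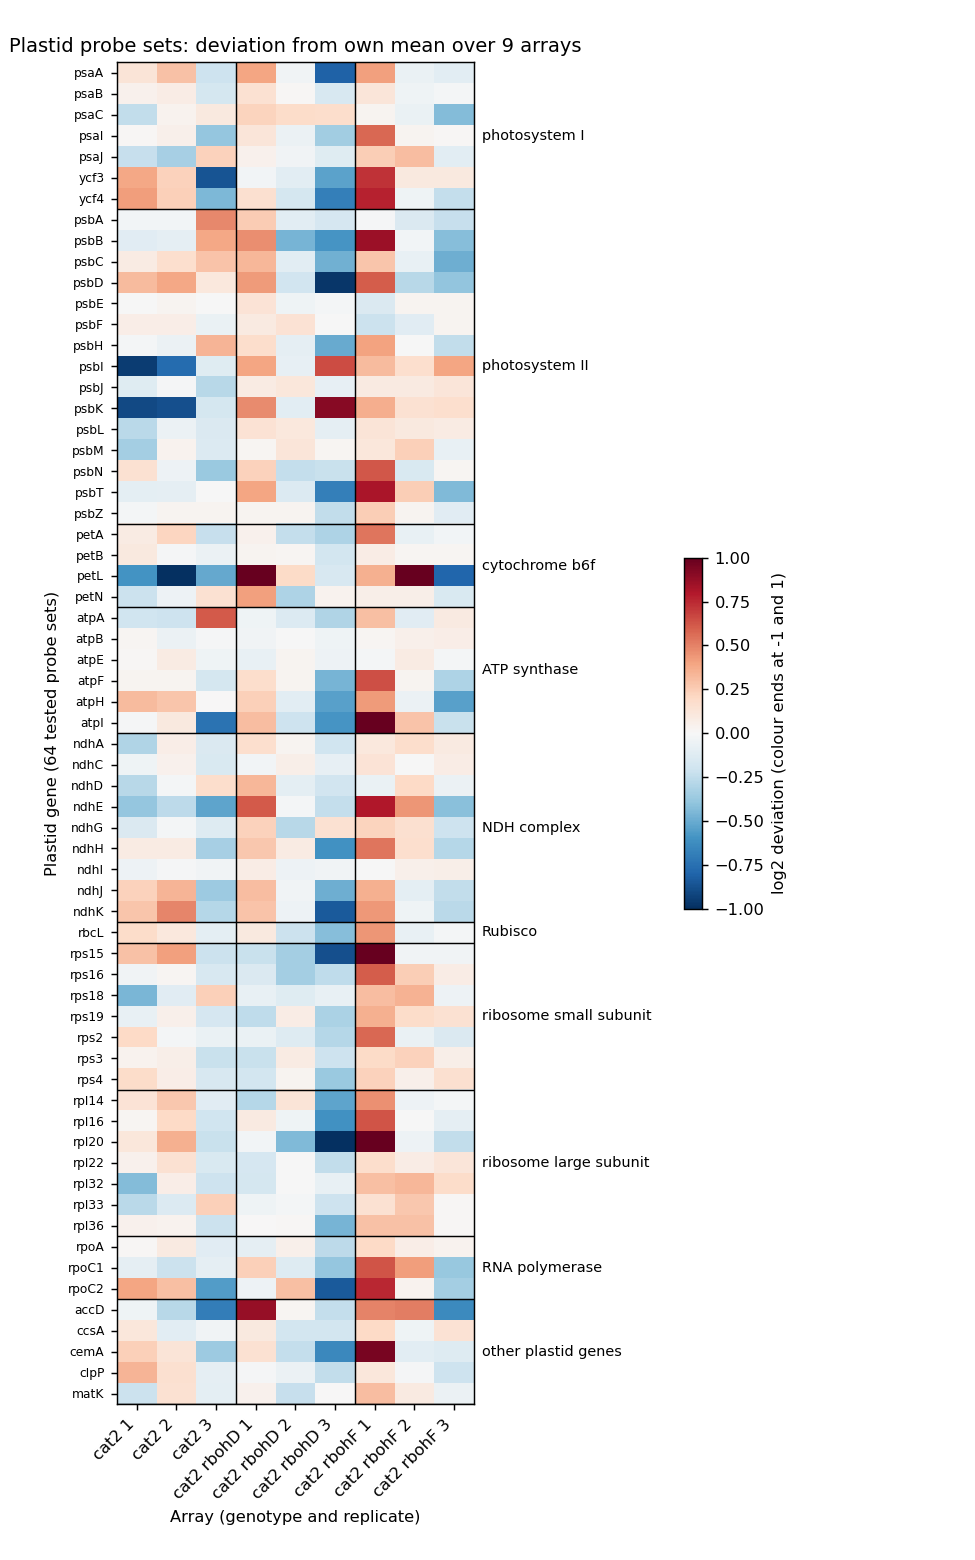
Deviation of each of the 64 tested plastid probe sets (rows, grouped by complex) from its own mean over the 9 arrays (columns), on the log2 scale. The column of cat2 rbohF replicate 1 is red at 58 members and that of cat2 rbohD replicate 3 is blue at most members, while psbK and psbI are blue on all 3 cat2 arrays.

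The spread between replicate arrays was accordingly wide. The residual SD of the tested members had a median of 0.241, against 0.129 over all tested probe sets, and 53 of 64 members lay above that overall median. It reached 0.745 for petL, a small subunit of the cytochrome b6f complex, 0.658 for rpl20 of the large ribosomal subunit and 0.555 for rpoC2, the beta'' subunit of RNA polymerase. It was smallest for atpB (0.0295), the catalytic beta subunit of ATP synthase, ndhI (0.0462) and atpE (0.0584), the epsilon subunit of ATP synthase, and these probe sets had means of 13.94, 13.58 and 13.97, near the top of the scale. The median SD of members was 0.187 in cat2, 0.249 in cat2 rbohD and 0.227 in cat2 rbohF, and over all tested probe sets 0.109, 0.130 and 0.0971. A standard error of a difference was 0.17 at the median member and 0.10 over all tested probe sets.

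**Figure D2:**
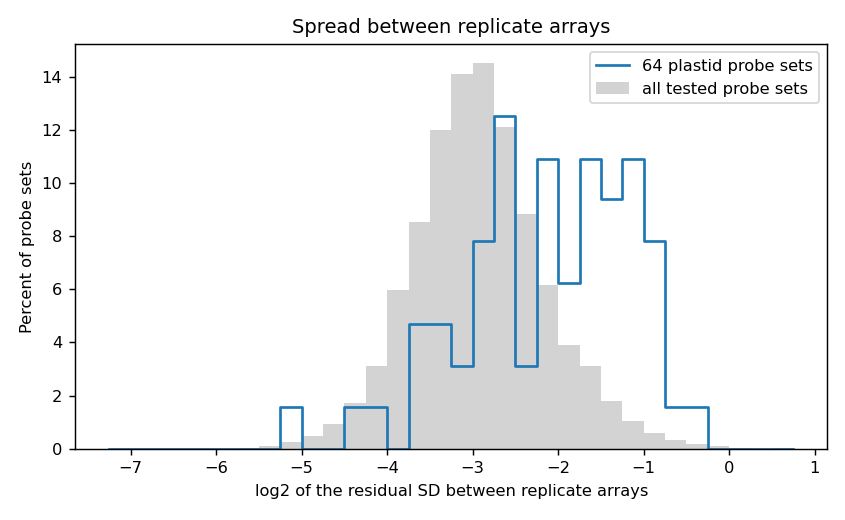
Share of probe sets (y axis, percent) by the residual SD between replicate arrays (x axis, log2 of the SD), for the 13888 tested probe sets (grey bars) and the 64 tested plastid probe sets (blue line). The plastid line lies to the right, with a median SD of 0.241 against 0.129.

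Photosystem II held the largest calls. psbK and psbI are neighbours on the plastid genome and are transcribed together. The values of psbK were 9.50, 9.52 and 10.23 in cat2, 10.87, 10.30 and 11.31 in cat2 rbohD, and 10.77, 10.56 and 10.57 in cat2 rbohF. Those of psbI were 9.62, 9.81 and 10.46 in cat2, 10.97, 10.50 and 11.23 in cat2 rbohD, and 10.89, 10.74 and 10.97 in cat2 rbohF. For both genes every array of either double mutant was above every cat2 array, and cat2 replicate 3 was the highest of its genotype. Both had their highest value on cat2 rbohD replicate 3, the array that gave the lowest value at 30 other members.

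Against cat2, psbK rose by 0.88 ± 0.26 (SE) in cat2 rbohF, 1.84-fold, and psbI by 0.90 ± 0.23, 1.87-fold (limma adjusted p = 0.0440 and 0.0263). In cat2 rbohD the differences were 1.08 ± 0.26 for psbK and 0.94 ± 0.23 for psbI, of like size, but neither passed (limma adjusted p = 0.153 and 0.167). Both comparisons use the same 3 cat2 arrays. Between the double mutants the differences were -0.20 ± 0.26 and -0.03 ± 0.23 (limma adjusted p = 0.697 and 0.952). The calls in cat2 rbohF rest on few arrays. With 1 array left out, psbI lost its call in 4 of 9 cases (replicates 1 and 2 of cat2, replicates 1 and 3 of cat2 rbohF), and the highest limma adjusted p was 0.0920. psbK lost its call in 6 of 9 cases (the same 4, replicate 1 of cat2 rbohD and replicate 2 of cat2 rbohF), with a highest limma adjusted p of 0.142. The differences themselves stayed between 0.73 and 1.15 for psbI and between 0.76 and 1.12 for psbK with any 1 array left out.

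The other 13 members of photosystem II did not pass in any comparison. In cat2 rbohF against cat2 the 15 differences ran from -0.29 to 0.90 with a median of 0.07, 9 above 0 and 6 below. The reaction centre genes psbA (D1) and psbD (D2) were at -0.27 and -0.29, and the core antenna genes psbB (CP47) and psbC (CP43) at 0.07 and -0.27, each with a standard error between 0.16 and 0.35. psbL and psbJ, small subunits that share a transcription unit with the cytochrome b559 genes psbE and psbF, had differences of 0.26 ± 0.09 and 0.23 ± 0.09 (limma adjusted p = 0.0740 and 0.101). Values of psbL were 10.04, 10.26 and 10.17 in cat2 against 10.44, 10.41 and 10.40 in cat2 rbohF, without overlap. Their unit partners psbF and psbE were at -0.12 and -0.04, so the 4 genes of this unit did not share a sign in cat2 rbohF. In cat2 rbohD against cat2 all 4 were above 0 (0.02 to 0.21). There psbL was at 0.21 ± 0.09 and psbJ at 0.17 ± 0.09 (limma adjusted p = 0.429 and 0.529), near their differences in cat2 rbohF. psbL and psbJ were picked out after their values were seen. Between the double mutants the smallest p in photosystem II was that of psbF, at -0.17 ± 0.09 (limma adjusted p = 0.273).

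**Figure D3:**
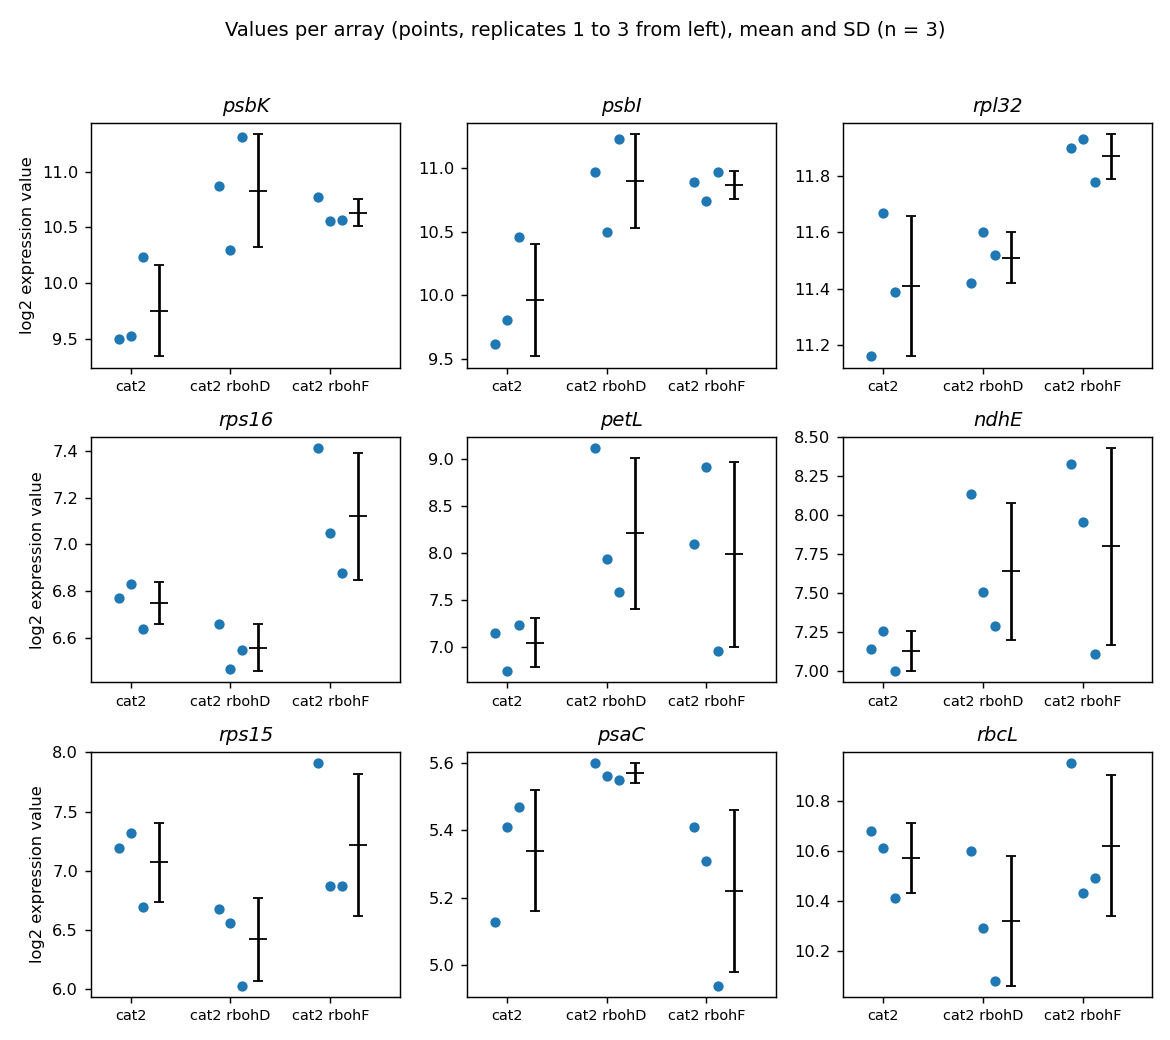
Log2 expression values on each array (points) with mean and SD (n = 3, bars) for 9 plastid genes in the 3 genotypes. The double mutant arrays of psbK and psbI are all above the cat2 arrays, those of rpl32 and rps16 in cat2 rbohF are above all other arrays, and petL, ndhE and rps15 vary widely within a double mutant.

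No member of photosystem I passed. psaJ, a small subunit, had values of 9.37, 9.26 and 9.82 in cat2 and 9.84, 9.90 and 9.49 in cat2 rbohF, a difference of 0.26 ± 0.16 (limma adjusted p = 0.292), and the groups overlapped. For psaC, whose product carries the terminal iron-sulfur clusters, the values were 5.13, 5.41 and 5.47 in cat2, 5.60, 5.56 and 5.55 in cat2 rbohD, and 5.41, 5.31 and 4.94 in cat2 rbohF. The cat2 rbohD arrays were above all others, by 0.23 ± 0.13 over cat2 (limma adjusted p = 0.577), and cat2 rbohF was at -0.35 ± 0.13 against cat2 rbohD (limma adjusted p = 0.153). These levels lie around the filter value, 2 of the 9 below it, where differences may be compressed. The large core genes psaA and psaB were at 0.01 and 0.04 in cat2 rbohF and at -0.22 and 0.02 in cat2 rbohD. The assembly factor genes ycf3 and ycf4 were at 0.39 and 0.09 in cat2 rbohF, with standard errors of 0.31 each.

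In the cytochrome b6f complex, petL stood out by size and by spread. Its values were 7.15, 6.75 and 7.24 in cat2, 9.11, 7.94 and 7.59 in cat2 rbohD, and 8.10, 8.91 and 6.96 in cat2 rbohF. Every cat2 rbohD array was above cat2, whereas cat2 rbohF replicate 3 lay within the cat2 range. The differences from cat2 were 1.17 ± 0.49 in cat2 rbohD and 0.94 ± 0.49 in cat2 rbohF (limma adjusted p = 0.429 and 0.225). Its neighbour petG, another small subunit, was too dim to test, yet was highest on the same 3 arrays, at 4.13, 4.28 and 4.33 in cat2, 5.24, 4.41 and 4.38 in cat2 rbohD, and 5.45, 4.93 and 4.11 in cat2 rbohF. Outside the complex, ndhE and accD, chosen here after their values were seen, were likewise highest on replicate 1 of cat2 rbohD and replicates 1 and 2 of cat2 rbohF. The large subunits petA (cytochrome f) and petB (cytochrome b6) were at 0.12 and 0.02 in cat2 rbohF, and petA at 0.31 ± 0.18 between the double mutants (limma adjusted p = 0.337).

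None of the 6 ATP synthase genes passed. atpI, the membrane subunit a, was at 7.10, 7.21 and 6.37 in cat2, 7.41, 6.91 and 6.52 in cat2 rbohD and 8.18, 7.40 and 6.88 in cat2 rbohF, with a difference of 0.59 ± 0.35 in cat2 rbohF against cat2 (limma adjusted p = 0.285) and 0.54 ± 0.35 against cat2 rbohD (limma adjusted p = 0.394). The groups overlapped. atpH, the subunit of the membrane ring, was at -0.33 ± 0.25 in cat2 rbohD against cat2 (limma adjusted p = 0.670). atpI, atpH, atpF and atpA are transcribed together with rps2, and in cat2 rbohF their differences from cat2 ran from -0.26 to 0.59, above and below 0 within the unit. The bright probe sets of atpB and atpE were at 0.06 and 0.00.

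The NDH complex, whose plastid subunit genes run from ndhA to ndhK, was represented by 10 members, 9 of them tested, and none passed. ndhE was at 7.14, 7.26 and 7.00 in cat2, 8.14, 7.51 and 7.29 in cat2 rbohD and 8.33, 7.96 and 7.11 in cat2 rbohF. Its differences from cat2 were 0.67 ± 0.30 in cat2 rbohF and 0.51 ± 0.30 in cat2 rbohD (limma adjusted p = 0.162 and 0.592), and only the cat2 rbohD arrays were all above cat2. With 1 array left out, its difference in cat2 rbohF ran from 0.40 to 1.01 (limma adjusted p up to 0.45). It was called in 1 of these 9 fits, the one without cat2 rbohF replicate 3, its lowest array there (1.01, limma adjusted p = 0.0362). ndhC, with the smallest p between the double mutants, was at 0.09 ± 0.08 (limma adjusted p = 0.564). The median of the 9 tested NDH members was 0.12 in cat2 rbohF and 0.03 in cat2 rbohD, and that over all tested probe sets was 0.01 and 0.00.

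rbcL, the gene of the large subunit of Rubisco, was at 10.68, 10.61 and 10.41 in cat2, 10.60, 10.29 and 10.08 in cat2 rbohD, and 10.95, 10.43 and 10.49 in cat2 rbohF. All 3 groups overlapped. The differences were 0.05 ± 0.17 in cat2 rbohF and -0.24 ± 0.17 in cat2 rbohD against cat2, and 0.30 ± 0.17 between the double mutants (limma adjusted p = 0.860, 0.640 and 0.324). The difference of cat2 rbohF from cat2 was -0.11 without cat2 rbohF replicate 1 and -0.03 without cat2 replicate 3, so its sign depended on single arrays.

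The genes of the plastid ribosome and RNA polymerase lay mostly above cat2 in cat2 rbohF and below it in cat2 rbohD, by amounts that rested in part on single arrays, and 1 of them passed a test. Of their 17 tested members, 17 were above 0 in cat2 rbohF against cat2 (median 0.20), 3 were above 0 in cat2 rbohD against cat2 (median -0.15), and 17 were above 0 in cat2 rbohF against cat2 rbohD (median 0.35). Among the 42 tested photosynthesis members these counts were 31, 21 and 33, with medians of 0.07, 0.00 and 0.09. Over all tested probe sets 51.5%, 48.5% and 49.5% were above 0. Of the 17, 7 share the transcription unit from rpl23 to rpoA. Ribosomal genes annotated in 2 copies, which are not members, had mixed signs in cat2 rbohF against cat2. There rps12 (-0.17 and -0.06) and rps7 (-0.02) were below 0, and rpl2 (0.09) and rpl23 (0.27) above. Each of these was below 0 in cat2 rbohD against cat2 and above 0 between the double mutants. Between the double mutants, 9 of the 17 expression genes had groups that did not overlap, and 3 of the 42 photosynthesis genes, where 26% of all tested probe sets did. Only rpl32 in cat2 rbohF against cat2 was called, and the difference between the classes itself was not tested.

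Over all 64 tested members, whatever their role, the medians were 0.12, -0.07 and 0.21, and over all 69 members with no filter 0.12, -0.06 and 0.19.

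These counts leaned on the same 2 arrays described above. Without cat2 rbohF replicate 1, 11 of 17 expression genes were above 0 in cat2 rbohF against cat2, with a median of 0.08, and 21 of 42 photosynthesis genes, with a median of 0.00. Without cat2 rbohD replicate 3, 7 of 17 expression genes were above 0 in cat2 rbohD against cat2, with a median of -0.03, and with any 1 array left out photosynthesis genes there ran from 13 to 29 of 42, with medians from -0.10 to 0.08. The median of all 64 tested members, with 1 array left out, ran from 0.02 to 0.25 in cat2 rbohF against cat2 and from -0.13 to 0.02, across 0, in cat2 rbohD against cat2. Between the double mutants 17 expression genes stayed above 0 with any 1 array left out, with medians from 0.22 to 0.43. Photosynthesis genes there ran from 25 to 38 of 42 above 0, with medians from 0.02 to 0.22, and all 64 tested members had medians from 0.06 to 0.31. With cat2 rbohF replicate 1 and cat2 rbohD replicate 3 both left out, a setting chosen after the data were seen, 13 of 17 were above 0 (median 0.17), and of the photosynthesis members 13 of 42 (median -0.06).

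**Figure D4:**
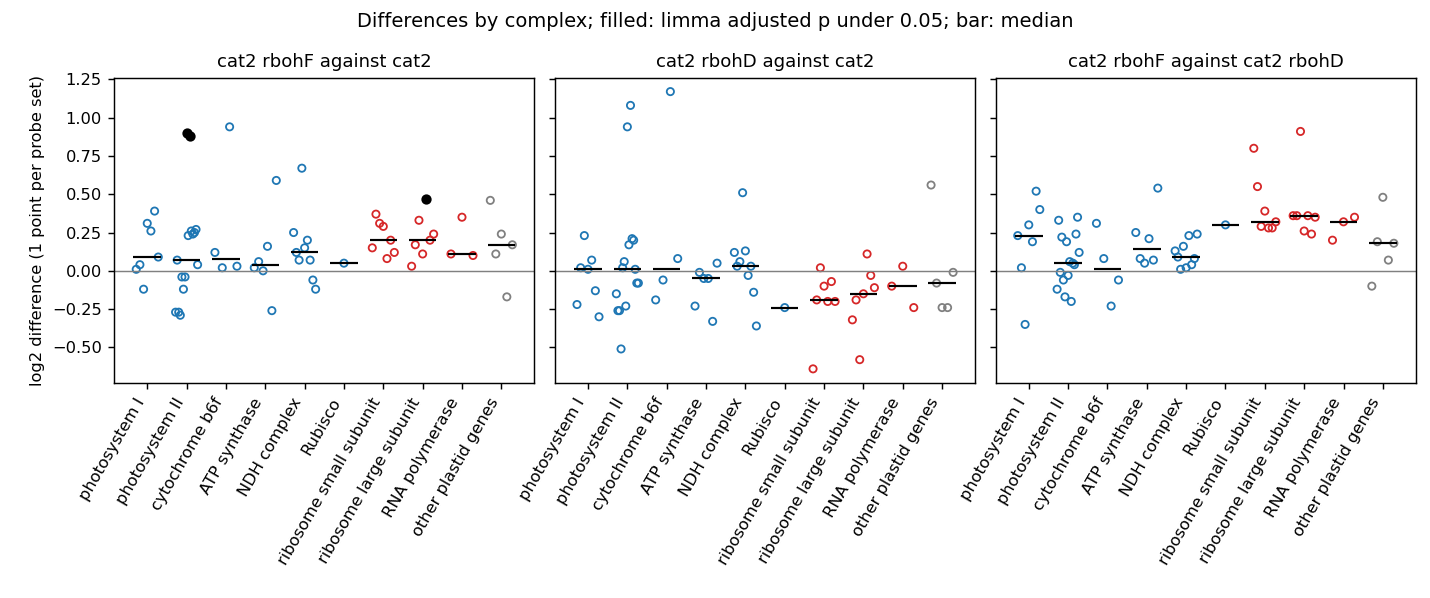
Log2 difference of each tested plastid probe set (1 point each) by complex in the 3 comparisons, with the median of each complex as a bar; photosynthesis in blue, ribosome and polymerase in red, other genes in grey, called members filled in black. The red points between the double mutants are all above 0, and only psbK, psbI and rpl32, in cat2 rbohF against cat2, are filled.

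rpl32 rose in cat2 rbohF. Its values were 11.16, 11.67 and 11.39 in cat2, 11.42, 11.60 and 11.52 in cat2 rbohD, and 11.90, 11.93 and 11.78 in cat2 rbohF, so that cat2 rbohF was above all other arrays. Against cat2 the rise was 0.47 ± 0.12, 1.38-fold (limma adjusted p = 0.0292), and against cat2 rbohD the difference was 0.36 ± 0.12 (limma adjusted p = 0.127). With 1 array left out the call was lost in 5 of 9 cases (replicates 1 and 3 of cat2 and each of cat2 rbohF), the highest limma adjusted p being 0.0996. rpl14, also of the large subunit, was at -0.32 ± 0.19 in cat2 rbohD against cat2 (limma adjusted p = 0.588). rpl20 had the largest difference between the double mutants of any member, 0.91 ± 0.43, and its highest value, 8.65, was that of cat2 rbohF replicate 1, against 7.06 and 6.86 on the other arrays of that genotype.

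In the small subunit of the ribosome, rps16 was at 6.77, 6.83 and 6.64 in cat2, 6.66, 6.47 and 6.55 in cat2 rbohD, and 7.41, 7.05 and 6.88 in cat2 rbohF. The cat2 rbohF arrays were above all others. The difference was 0.37 ± 0.13 against cat2 (limma adjusted p = 0.0830) and 0.55 ± 0.13, 1.47-fold, against cat2 rbohD (limma adjusted p = 0.0563). The latter was called under array weights, a stricter filter or a replicate block (limma adjusted p = 0.0441, 0.0448 and 0.0470). With any 1 array left out it ran from 0.40 to 0.67 and was not called (limma adjusted p = 0.0568 to 0.196). rps15 was at 7.19, 7.32 and 6.69 in cat2, 6.68, 6.56 and 6.03 in cat2 rbohD, and 7.91, 6.87 and 6.87 in cat2 rbohF. All its cat2 rbohD arrays were below both other genotypes, with a difference of -0.64 ± 0.29 from cat2 (limma adjusted p = 0.480). It lies at the end of the unit that holds psaC, ndhD, ndhE, ndhG, ndhI, ndhA and ndhH, whose differences in cat2 rbohD ran from -0.03 to 0.51.

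The long ribosomal unit from rpl23 to rpoA had differences of 1 sign in each comparison over the 9 arrays. Its 7 tested members were all above 0 in cat2 rbohF against cat2 (0.03 to 0.29) and all below 0 in cat2 rbohD (-0.32 to -0.07), and none passed in either. The sign of 2 of them in cat2 rbohF rested on replicate 1. Its other arrays had rpl14 at 11.43 and 11.46 against a cat2 mean of 11.58, and rpl16 at 11.50 and 11.41 against 11.51. In cat2 rbohD the sign of rpl36 rested on replicate 3, with 11.09 and 11.09 on the other arrays against a cat2 mean of 11.04. There rpl16 was at 11.59 and 11.46 without replicate 3, on either side of its cat2 mean. Between the double mutants the 7 differences ran from 0.20 to 0.39, with rps19 at 0.39 ± 0.12 (limma adjusted p = 0.0917). rpoA, the alpha subunit gene at the end of this unit, was at 12.26, 12.33 and 12.13 in cat2, 12.16, 12.29 and 11.98 in cat2 rbohD, and 12.45, 12.31 and 12.28 in cat2 rbohF. Its differences were -0.10 ± 0.10 in cat2 rbohD against cat2 and 0.20 ± 0.10 between the double mutants (limma adjusted p = 0.775 and 0.263). rpoC1, the beta' subunit, was at 0.35 ± 0.24 in cat2 rbohF against cat2 (limma adjusted p = 0.362). Its values there were 10.02, 9.81 and 9.01 against 9.30, 9.18 and 9.30 in cat2, with replicate 3 below all cat2 arrays.

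Of the 5 other members none passed. clpP, a subunit of the stromal Clp protease, was at 12.22, 12.04 and 11.79 in cat2, 11.86, 11.82 and 11.64 in cat2 rbohD, and 11.99, 11.87 and 11.67 in cat2 rbohF. Its differences from cat2 were -0.24 ± 0.13 in cat2 rbohD and -0.17 ± 0.13 in cat2 rbohF (limma adjusted p = 0.545 and 0.398). It was called lower in cat2 rbohF when each array was centred on its plastid members (-0.30, limma adjusted p = 0.0469). This setting was chosen after the data were seen. It takes the members' own median deviation off each array, on average -0.03 in cat2 and 0.10 in cat2 rbohF. The centring thus lowers the difference of every member in this comparison, and the call is relative to the other members. ccsA, needed for cytochrome c assembly, was at 0.19 ± 0.11 between the double mutants (limma adjusted p = 0.334). accD, the plastid-encoded subunit of acetyl-CoA carboxylase, was at 0.56 ± 0.36 in cat2 rbohD and 0.46 ± 0.36 in cat2 rbohF against cat2 (limma adjusted p = 0.623 and 0.426). cemA, an envelope protein gene, and matK, a maturase gene, were at 0.24 and 0.17 in cat2 rbohF.

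Among nuclear genes of the same complexes and of plastid gene expression, 7 were called in cat2 rbohF against cat2, all higher. Over all tested probe sets 16.4% were called in this comparison, 6.47% in the upward direction, and 51.5% were above 0. Few loci of each list had a probe set of 1 gene. All 3 measured nuclear subunits of the NDH complex rose in cat2 rbohF against cat2, NdhN by 0.48 ± 0.10, NdhL by 0.41 ± 0.10 and NdhS by 0.34 ± 0.10 (limma adjusted p = 0.0122, 0.0200 and 0.0387). Of 9 measured nuclear proteins of the plastid ribosome, 3 rose in cat2 rbohF against cat2, AT4G17560 by 0.39, AT3G54210 by 0.24 and AT3G13120 by 0.31 (limma adjusted p = 0.00893, 0.0455 and 0.0487), and 6 did not pass; all 9 were above 0, with a median of 0.24. In cat2 rbohD these 9 ran from -0.09 to 0.05 and none passed. AT4G17560 also rose against cat2 rbohD, by 0.42 (limma adjusted p = 0.0368).

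**Figure D5:**
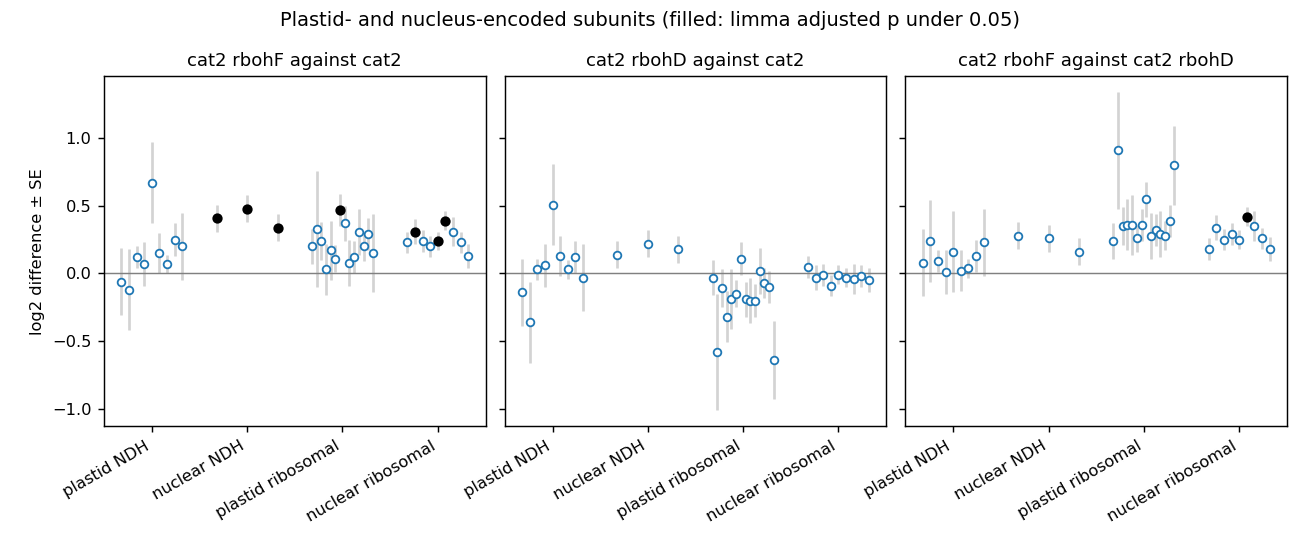
Log2 differences with their standard errors (bars) for tested plastid-encoded and nucleus-encoded subunits of the NDH complex and of the plastid ribosome in the 3 comparisons, called genes filled. In cat2 rbohF against cat2 the 3 nuclear NDH genes and 3 of 9 nuclear ribosomal genes are filled, and of the plastid-encoded ones rpl32.

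Of 2 measured genes for plastid RNA processing, AT2G37220 rose in cat2 rbohF by 0.30 (limma adjusted p = 0.0404) and the other did not pass. None passed among 2 photosystem I, 2 photosystem II, 3 light-harvesting and 2 electron transfer and ATP synthase genes, RCA, and AT5G15700 of the sigma factor and phage-type polymerase list. No gene of the list of proteins that bind the plastid polymerase was named by the annotation used here. With 1 array left out, AT4G17560 kept its call against cat2 in 9 of 9 cases, NdhN lost it in 1 (limma adjusted p = 0.0511, without replicate 2 of cat2) and NdhL in 3. NdhS, AT3G13120, AT2G37220 and AT3G54210 lost it in 5, 6, 7 and 7 of 9 cases (limma adjusted p up to 0.134, 0.161, 0.137 and 0.149), and AT4G17560 lost that against cat2 rbohD in 7 (up to 0.173). With cat2 rbohF replicate 1 and cat2 rbohD replicate 3 both left out, NdhN, NdhL and AT4G17560 kept the call against cat2 and the other 4 did not pass (limma adjusted p = 0.0746 to 0.133).

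Measures of RNA quality did not move with genotype in a common direction, and the 1 root marker tested rose in cat2 rbohF. The signal of 1 pair of GAPDH control sets at 3' over 5' ends was 0.75 ± 0.06 in cat2, 0.86 ± 0.08 in cat2 rbohD and 0.91 ± 0.07 in cat2 rbohF (log2 ratio, SD, n = 3). All arrays of cat2 rbohD (0.81 to 0.95) and cat2 rbohF (0.87 to 0.99) were above those of cat2 (0.69 to 0.79). Within each genotype this ratio was highest on replicate 3, at 0.79, 0.95 and 0.99. A second pair for GAPDH ran the other way, at -0.03 ± 0.11, -0.13 ± 0.05 and -0.22 ± 0.05. Of 2 pairs for actin, 1 also ran downward, at 2.60 ± 0.18, 2.56 ± 0.17 and 2.47 ± 0.17. The other actin pair was highest in cat2 rbohD, at 1.24 ± 0.07, 1.43 ± 0.09 and 1.27 ± 0.03. Ubiquitin was highest in cat2, at 1.33 ± 0.09, 1.25 ± 0.04 and 1.28 ± 0.05. Of 4 root markers only PYK10 was tested, and it rose in cat2 rbohF by 1.35 ± 0.25 (limma adjusted p = 0.00836). The other 3 stayed under the filter value, at 4.27 at most, and were not tested. Near the floor, their cat2 rbohF arrays were still all above those of cat2. The means were 3.83 against 3.57 for AT5G17820, 3.98 against 3.58 for AT3G01190 and 3.87 against 3.30 for AT4G30170. At such levels the summed level of the 4 mostly repeats PYK10. That sum ran from 7.29 to 8.28 in cat2, 8.03 to 8.29 in cat2 rbohD and 8.88 to 9.27 in cat2 rbohF. No flower marker was named by the annotation used here, and the guard cell marker FMA was at 0.15 ± 0.09 in cat2 rbohF and -0.26 ± 0.09 in cat2 rbohD against cat2 and at 0.41 ± 0.09 between the double mutants (limma adjusted p = 0.299, 0.344 and 0.0527). Its cat2 rbohD arrays were below all others. The part of these measures in the plastid results was not tested.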

How the data were processed

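The authors deposited 1 table of log2 expression values, which the submitters' processing notes credit to GCRMA, in a version the sources used here do not name. GCRMA adjusts background by probe sequence and equalises the arrays' distributions, which would hide a shift common to most transcripts. Array medians lay between 6.05 and 6.12. Per the labels, labelling started from 5 ug of RNA.

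Of 22810 probe sets, 64 controls were left out, and 13888 were kept where the third-highest of 9 values exceeded 5.14, the 40th percentile of all values. Each comparison was fitted over all of these with limma (version 3.58.1; R 4.3.3), using lmFit and eBayes with 1 mean per genotype, 9 arrays and 6 residual degrees of freedom. Tests were two-sided, adjusted by Benjamini-Hochberg and called under 0.05, and the fit was tested on simulated data. Arrays have no read depth, and their number limits the precision.

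Gene names came from the platform annotation and a RefSeq gene table (TAIR10.1, used for names and neighbours only), which matched 13436 of 13513 probe sets with 1 gene. The genotype labels were not checked against the mutated genes here. The members and lists were chosen with earlier results of these data known. Named by rule were, per complex, the member with the smallest p in each comparison and any called member, and the called nuclear genes; members named beyond it were chosen after their values were seen. Alternatives were 2 other filters, 2 other normalizations, a trended and a robust eBayes, array weights, the 6 arrays compared alone, a replicate block and leaving out each array. Mitochondrial genes were not used here.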

Additional observations from a re-analysis of the deposited data

How the results depend on the processing

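In cat2 rbohF against cat2, the 3 called members became 7 with array weights, 4 with the replicate block, 1 (clpP, lower) with each array centred on its plastid members, and 0 with cat2 rbohD replicate 3 and cat2 rbohF replicate 1 both left out; with 1 array left out they ran from 0 to 4. All called probe sets, 2273, became 1269 with both left out and ran from 811 to 2710 with 1 left out. In cat2 rbohD against cat2, no member was called under any of these settings, and the 29 calls over all probe sets became 12 with the stricter filter, 18 with array weights, 15 with only the 6 arrays compared, 54 with the replicate block and 17 with both arrays left out (7 to 36 with 1 left out). Between the double mutants, 1 member (rps16) was called under array weights, the replicate block or the stricter filter, and the 267 calls over all probe sets became 164 without a filter, 455, 703 and 2 with the stricter filter, array weights and only the 6 arrays, and 133 with both arrays left out (1 to 1052 with 1 left out, the lowest without cat2 rbohF replicate 1). The median member there went from 0.21 to -0.02 with both left out. Differences changed sign for rbcL in cat2 rbohF against cat2 (-0.07 plastid-centred, -0.11 with both left out, -0.11 to 0.15 with 1 left out), and between the double mutants for ndhC (-0.08 plastid-centred) and atpI (-0.02 with both left out). Of 54 fits of the 3 called members under other settings or with 1 array left out, 16 ended the call, among them psbK without a filter (limma adjusted p = 0.0609). Centring on plastid members moves all their differences in a comparison by the same amount, so the plastid-centred sign changes of rbcL and ndhC follow from the setting. The cause of the other changes was not tested, and some of those settings used fewer arrays. The 2 settings that centre on plastid members or leave out both arrays were chosen after the data were seen. Residuals of same-numbered arrays correlated between -0.24 and 0.25 over all probe sets and between -0.38 and 0.66 over the members, where replicates 1 and 3 correlated positively in every pair, so pairing was not shown for all numbers and the block stayed an alternative. With the replicate block atpI passed in cat2 rbohF against cat2 (limma adjusted p = 0.0426), and NdhS, AT2G37220, AT3G13120 and AT3G54210 did not (0.0613, 0.0665, 0.0513 and 0.0637). With 3 arrays a genotype and a median standard error of 0.17, small differences of plastid genes were not detectable.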

Other observations

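Plastid genes that the annotation lists in 2 copies were read by 8 probe sets, of which 6 were tested, and none was called in any comparison. The ribosomal protein gene rps12 had 2 probe sets, at -0.17 and -0.06 in cat2 rbohF and -0.50 and -0.18 in cat2 rbohD against cat2. rpl2, rpl23 and rps7, also ribosomal, were at 0.09, 0.27 and -0.02 in cat2 rbohF and at -0.09, -0.04 and -0.09 in cat2 rbohD. ycf1, a gene of the protein import machinery, was at 0.10 and -0.27. The probe sets of ycf2 and ndhB were too dim to test.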
